A study of Mus musculus with 4 samples.

Results

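Dermal fibroblasts were examined among the barcodes of 4 droplet-based single-cell RNA libraries made from the skin of adult mice. The fibroblasts were chosen by measured counts of these same libraries: a barcode was taken when it held at least 10 UMIs (unique molecular identifiers, each marking 1 captured RNA molecule) of the genes Col1a1, Col1a2, Col3a1 and Dcn together, with at least 3 of these genes detected. It also had to hold no UMI of Ptprc (a leukocyte gene), Pecam1 (endothelial) or Rgs5 (pericyte). The rule was met by 398 of 94895 barcodes that had 1000 or more gene UMIs and 15% or fewer mitochondrial UMIs. These were 47 barcodes of the 1-day control library, 35 of the 1-day ablated library, 227 of the 1-week control library and 89 of the 1-week ablated library.

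The mice carried loxP-flanked alleles of ΔNp63, a form of p63, the transcription factor on which basal keratinocytes depend. Controls had the genotype DNp63fl/fl, and ablated mice the genotype DNp63fl/fl;K14-CreT2, in which the keratin 14 promoter drives a tamoxifen-dependent Cre recombinase. All mice, controls included, received 200 mg/kg of tamoxifen by oral gavage on each of 5 days, and cells were taken 1 day or 1 week after ablation. Ages ran from 2 to 17 months, males and females were used, and 0.25% trypsin freed the tissue at 4 °C overnight or at 37 °C for 2 h. Which age, sex and digestion belong to which library is not given in the sources used here. A 3′ kit (version 3.1) was used at 1 day and a 5′ kit (version 1.1) at 1 week, so control and ablated were compared within a time point, and where values of both time points stand side by side the kit cannot be told apart from the time.

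Fibroblasts are the cells that make and remodel the dermal matrix: fibrillar collagens, the small leucine-rich proteoglycans that sit on collagen fibrils, elastic microfibrils and matrix glycoproteins. They also secrete chemokines and growth factors that reach the epidermis. The keratin 14 promoter is active in basal keratinocytes and not in fibroblasts, so the ablated libraries hold fibroblasts lying under an epidermis in which the gene was targeted. The tissue was labelled as epidermis, and the fibroblasts are therefore those that came away with an epidermal preparation, not a sample of the whole dermis. Each group was 1 library, and no statistical test was possible. Every interval below is an exact 95% interval for the counting error of UMIs or barcodes and does not cover differences between animals, digestions or libraries.

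The fibroblast barcodes of a library summed to 180141 gene UMIs (1-day control), 134969 (1-day ablated), 1053419 (1-week control) and 433741 (1-week ablated). Their median depth was 2498, 2938, 3593 and 4155 UMIs in the same order, against 4630, 3504, 3597 and 1615 UMIs in all other passing barcodes. The 2 libraries of the 1-day pair shared 299 barcode sequences and those of the 1-week pair 661, and libraries of different time points shared 9 to 18. No fibroblast barcode was a fibroblast in another library, and 6 of the 1-week fibroblast barcodes were also listed in the other library of that pair.

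Fibroblast genes that the rule had not used were detected in more of these barcodes than of the others. After thinning every barcode to 1000 UMIs, Lum (lumican, a collagen-binding proteoglycan) was detected in 81.9% of the 1-week control fibroblasts (76.3% to 86.7%) and 69.7% of the 1-week ablated ones (59.0% to 79.0%), against 1.99% and 1.70% of the other barcodes. At 1 day Lum was detected in 36.2% of control and 20% of ablated fibroblasts, against 0.0136% and 0.0189% of the other barcodes. Pdgfra, the platelet-derived growth factor receptor carried by most dermal fibroblasts, was detected in 23.4%, 11.4%, 21.1% and 23.6% in the order of the libraries above, and in under 1% of the other barcodes everywhere. The mesenchymal filament gene Vim was detected in 87.2%, 77.1%, 89.0% and 96.6% of fibroblasts. Without thinning, the shares of Pdgfra were 48.9%, 34.3%, 52.0% and 57.3%.

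**Figure D1:**
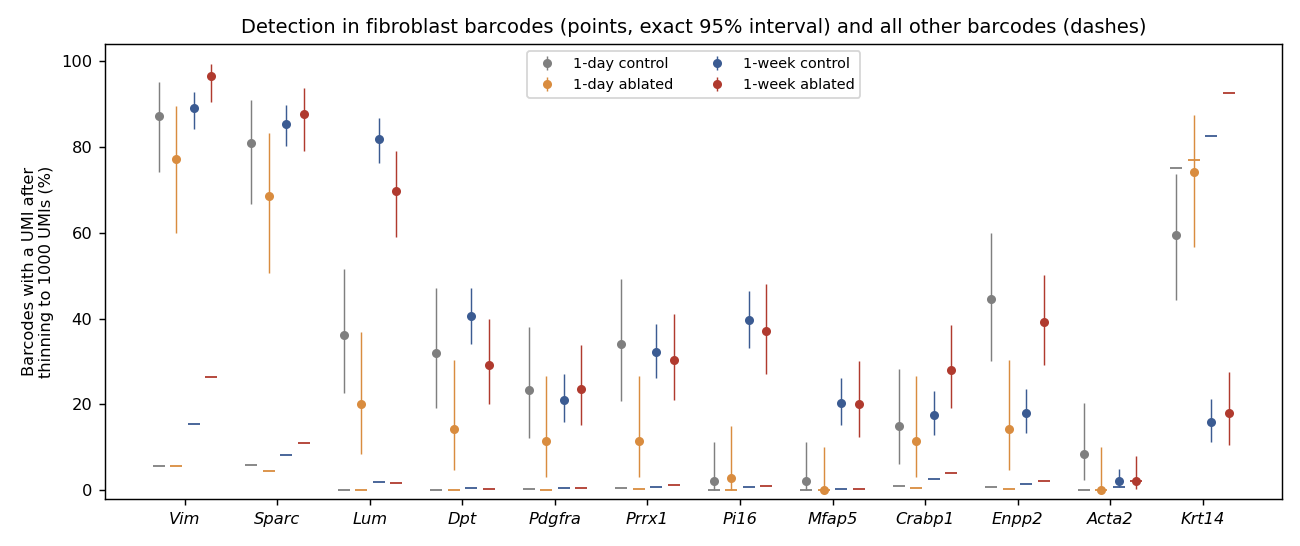
Share of fibroblast barcodes with at least 1 UMI of each gene after thinning to 1000 UMIs (points, exact 95% binomial intervals) and of all other passing barcodes (dashes), in percent, for the 4 libraries. Lum reached 81.9% in the 1-week control library, and Krt14 stayed at 15.9% and 18.0% in 1-week fibroblasts while it reached 59.6% and 74.3% in 1-day fibroblasts.

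Keratinocyte RNA was found in fibroblast barcodes of each library. Krt14, the basal keratin, was detected in 59.6% and 74.3% of the thinned 1-day fibroblasts (control and ablated), against 75.2% and 76.9% of the other barcodes there. At 1 week it was detected in 15.9% and 18.0% of fibroblasts, against 82.6% and 92.6% of the other barcodes. Fibroblast barcodes with more UMIs of 5 keratins (Krt5, Krt14, Krt15, Krt1 and Krt10) than of the rule genes numbered 11 of 47 (23.4%), 20 of 35 (57.1%), 28 of 227 (12.3%) and 6 of 89 (6.74%). The 1-day ablated barcodes also lay nearest the rule's threshold. There, 10 barcodes held 10 to 12 rule gene UMIs and 12 further barcodes just missed it with 7 to 9. The numbers just inside and just outside were 3 and 4 in the 1-day control, 13 and 34 in the 1-week control and 1 and 8 in the 1-week ablated library. For the main genes named at 1 day, the log2 ratio without the barcodes that held more keratin is therefore given second; no doublet caller was run.

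**Figure D2:**
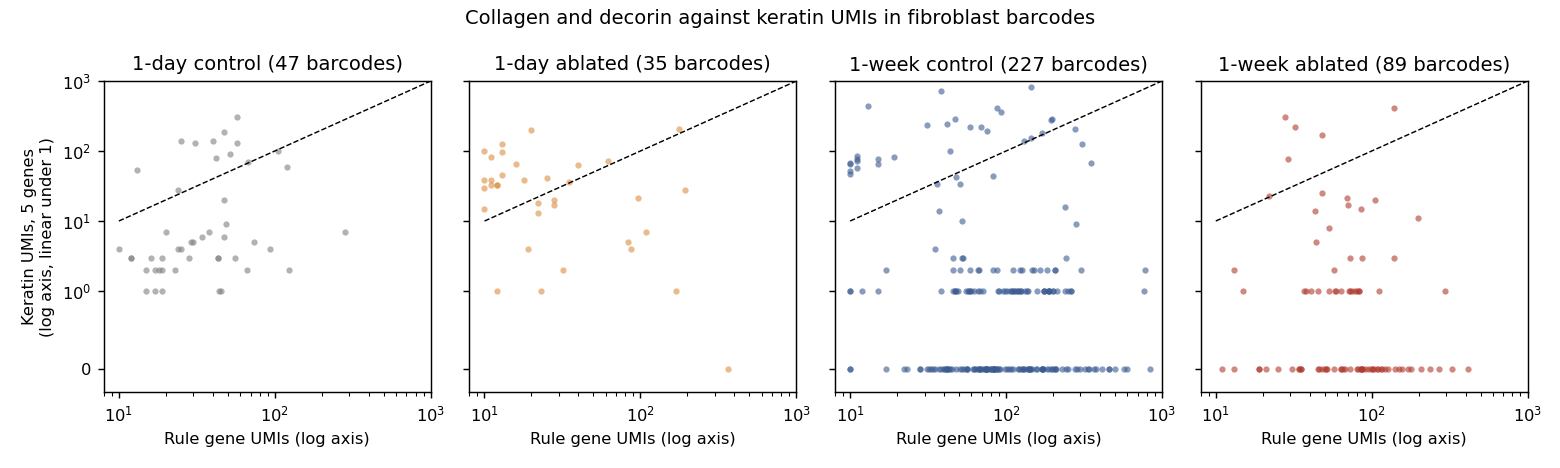
Each point is 1 fibroblast barcode, with its UMIs of Col1a1, Col1a2, Col3a1 and Dcn (x axis, log scale) and of 5 keratins (y axis, log scale above 1); the dashed line marks equal numbers. Of the 35 1-day ablated barcodes 20 lie above the line, against 6 of 89 in the 1-week ablated library.

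Markers of other cell types were summed over the fibroblasts of each library, in the order 1-day control, 1-day ablated, 1-week control and 1-week ablated. The endothelial list holds Pecam1, the immune list Ptprc and the mural list Rgs5. The rule fixed these genes at 0 in the fibroblasts but not in the other barcodes, so part of each count at 0 was set in advance. The 1 mural marker at 0 in the 1-week ablated fibroblasts is Rgs5. Of 18 endothelial markers, 16 and 17 were at 0 in the summed 1-day fibroblasts (control and ablated) and 11 and 13 at 1 week, and the list summed to 99.9, 44.5, 123 and 166 CPM (UMIs scaled to 1000000 UMIs of the summed fibroblasts of a library), against 11.4, 7.99, 70.4 and 149 CPM in the other barcodes. The 23 immune markers summed to 216, 1400, 176 and 108 CPM, with 12, 15, 9 and 13 of them at 0, against 1092, 1202, 1700 and 1583 CPM in the other barcodes. In the 1-day ablated fibroblasts 1 barcode held 61 of the 62 UMIs of Cd74 and 1 held 49 of the 52 UMIs of H2-Ab1, both genes of antigen presentation. The 15 mural markers (smooth muscle and pericyte) summed to 2104, 459, 685 and 3412 CPM, with 5, 7, 2 and 1 at 0, against 326, 330, 432 and 486 CPM in the other barcodes. Their contractile members came largely from single barcodes. In the 1-week ablated library 1 barcode held 1161 of the 1202 UMIs of Acta2, Tagln and Myh11, and in the 1-day control library 1 barcode held 250 of 278. These barcodes held only 13 rule gene UMIs each.

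Trp63, the targeted gene, was present in the fibroblast sums at a lower level than in the other barcodes. The fibroblasts held 34 UMIs (189 CPM) in the 1-day control and 11 UMIs (81.5 CPM) in the 1-day ablated library, against 392 and 113 CPM in the other barcodes. Without the keratin-rich barcodes 6 and 4 UMIs remained at 1 day, and the log2 ratio turned from -1.21 to 0.69. At 1 week they held 90 UMIs (85.4 CPM) and 13 UMIs (30.0 CPM), against 424 and 141 CPM. The counts do not separate the isoforms, and the 3′ reads of the 1-day libraries lie away from the start at which ΔNp63 differs, so at 1 day they do not check the deletion.

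Fibroblasts were a smaller share of the ablated library at 1 week. They made up 1.48% of the passing barcodes of the control library (227 of 15318, 1.30% to 1.69%) and 0.486% of the ablated library (89 of 18326, 0.390% to 0.597%), a log2 ratio of -1.61 (-1.98 to -1.25). At 1 day the shares were 0.160% (47 of 29389, 0.118% to 0.213%) and 0.110% (35 of 31862, 0.0765% to 0.153%), a log2 ratio of -0.54 with an interval that includes 0 (-1.22 to 0.12). The depth of the other barcodes moved with the 1-week result: among barcodes of 2000 or more UMIs the shares were 198 and 129 per 10000, and the log2 ratio was -0.61 (-1.0 to -0.23). The 1-day log2 ratio was -0.18 (-0.99 to 0.62) among barcodes of 2000 or more UMIs, and -1.38 (-2.35 to -0.47) without the keratin-rich barcodes, from 36 and 15 barcodes.

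Some of the 1-week fibroblast barcodes carried Coch, which encodes the secreted matrix protein cochlin (GRCm38, chromosome 12, 51593341 to 51605771, plus strand). The split by Coch was chosen after Coch had been seen among the genes that differed most, so it is a description. Barcodes with 3 or more Coch UMIs made up 20 of the 227 control fibroblasts (8.81%, 5.46% to 13.3%) and 29 of the 89 ablated ones (32.6%, 23.0% to 43.3%). Only 13 control and 8 ablated barcodes held 1 or 2 Coch UMIs, and the rest held none. Per 10000 passing barcodes, the Coch-carrying fibroblasts numbered 13.1 (control) and 15.8 (ablated) (log2 ratio 0.28, -0.59 to 1.18). The fibroblasts with fewer than 3 Coch UMIs numbered 135 and 32.7 per 10000 (log2 ratio -2.05, -2.48 to -1.62). The interval of the ratio included 0 for the Coch-carrying barcodes and lay wholly below 0 for the others. Both ratios rest on the number of passing barcodes, whose median depth outside the fibroblasts was 3597 UMIs (control) and 1615 UMIs (ablated). With 2000 or more UMIs the passing barcodes fell from 15318 and 18326 to 10092 and 6255. The split was not recounted at that depth, so whether the ratios of the 2 sets hold there was not tested.

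**Figure D3:**
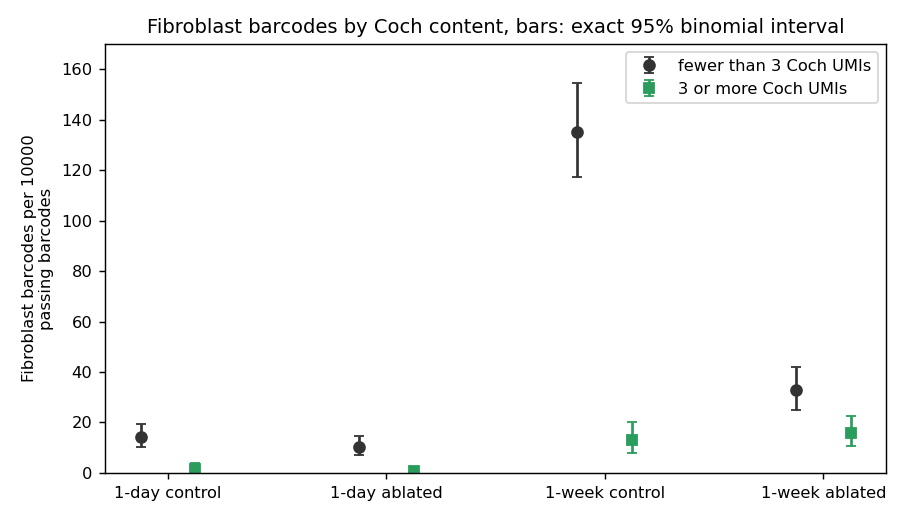
Fibroblast barcodes per 10000 passing barcodes in each library, split by whether they held 3 or more UMIs of Coch (squares) or fewer (circles), with exact 95% binomial intervals. At 1 week the circles stand at 135 (control) and 32.7 (ablated), and the squares at 13.1 and 15.8.

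The Coch-carrying barcodes shared other genes that the split had not used. Fmod (fibromodulin, a proteoglycan that regulates collagen fibril assembly) was found in 10 of 20 control and 18 of 29 ablated Coch-carrying barcodes, against 2 of 207 and 1 of 60 of the others. Cck, the gene of the peptide cholecystokinin, was found in 6 of 20 and 14 of 29, against 3 of 207 and 1 of 60. Crabp1, a retinoic acid-binding protein, stood at 2328 and 2324 CPM (control and ablated) in the Coch-carrying barcodes, against 211 and 174 CPM in the others. Tnmd (tenomodulin, a membrane protein known from tendon) stood at 512 and 633 CPM against 55.0 and 52.9 CPM, and Aspn (asporin) at 1545 and 1650 CPM against 244 and 193 CPM. Col3a1, a rule gene and so a description only, stood at 857 and 686 CPM in the Coch-carrying barcodes and at 4298 and 3431 CPM in the others. Lum, outside the rule, stood at 1639 and 1005 CPM against 3026 and 2366 CPM. In the 1-day control the order was the opposite, with 5 Coch-carrying barcodes: Col3a1 stood at 7521 against 3107 CPM and Lum at 1564 against 516 CPM. The 1-day ablated library did not share that order. Its 2 Coch-carrying barcodes held no UMI of Col3a1 or Lum (0 to 416 CPM each), against 3830 and 365 CPM in the others. The keratinocyte gene Krt14 also differed between the sets: it stood at 3882 CPM in 3 of 20 control and 2690 CPM in 14 of 29 ablated Coch-carrying barcodes, against 1325 CPM in 45 of 207 and 1243 CPM in 9 of 60 of the others. The part of keratinocyte RNA in the split was not tested. Control and ablated values were also set side by side within a set. In the Coch-carrying barcodes Postn stood at 559 and 1053 CPM and Enpp2 at 717 and 1218 CPM, both under 2-fold. In the others Prelp stood at 123 CPM in 69 of 207 control and 299 CPM in 36 of 60 ablated barcodes, and Hsd11b1 at 26.4 CPM in 18 and 212 CPM in 21 of them.

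At 1 week 4326 genes had 50 or more UMIs over both fibroblast sums. Of these, 247 (5.71%) differed 2-fold or more: 115 (2.66%) were higher and 132 (3.05%) lower in the ablated library. The median log2 ratio of all genes was 0.058. The share of differing genes that were higher was 46.6%, and depended on the scaling: it was 28.8% with TMM factors, which moved the median of all genes to -0.076, and 38.1% when mitochondrial, ribosomal protein and rule genes were left out of the totals. The genes named next had the 15 highest and 15 lowest ratios among genes at least 2 times higher in fibroblasts than in the other barcodes of the library in which they were higher; 1103 genes met that condition and 3123 did not. Keratinocyte RNA in the 1-week fibroblasts moved both ways, more of it lower: of 27 keratinocyte markers 8 were 2-fold or more higher and 9 lower. Log2 ratios below 0 were found for 18 of the 27, against 44.5% of all genes tested, and the median was -0.57. With TMM these were 18 of 27 and 57.7%. The list of 30 summed to 15255 CPM (control) and 12623 CPM (ablated), against 69999 and 79514 CPM in the other barcodes. The part of keratinocyte RNA in the lower ratios was not tested.

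**Figure D4:**
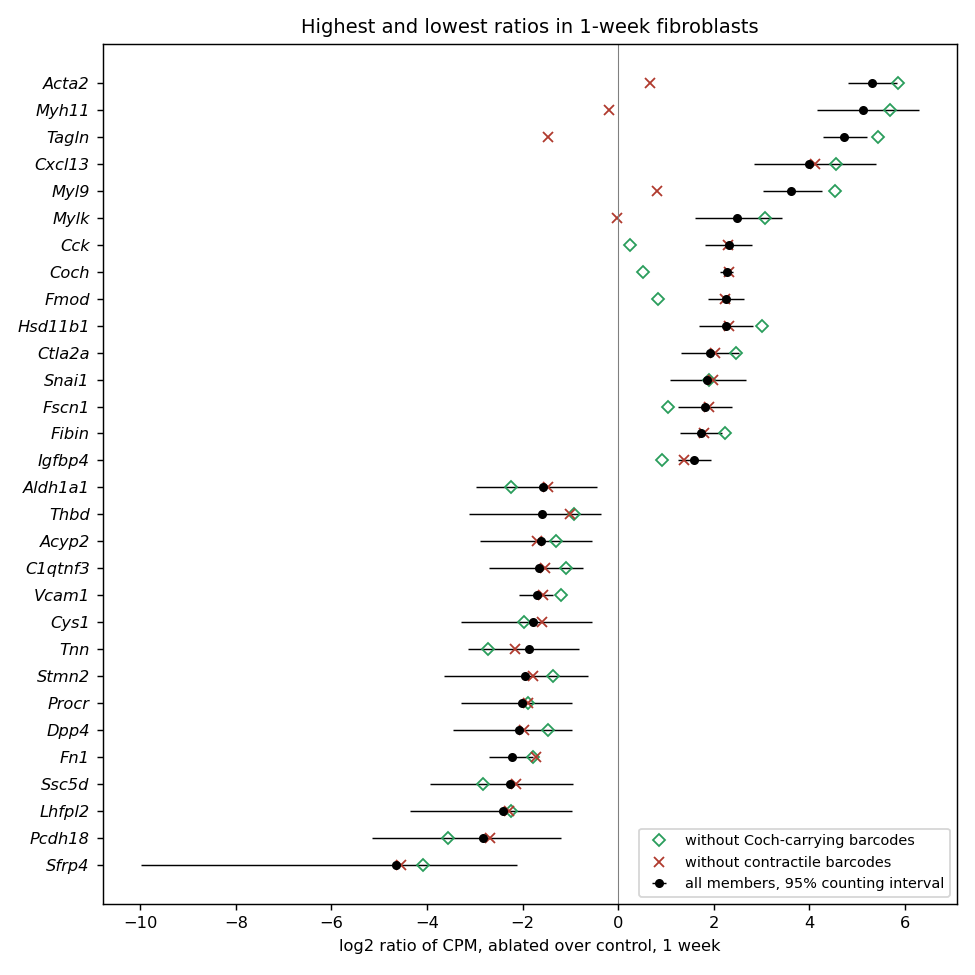
Log2 ratio of CPM, ablated over control, of the 30 genes named by the rule at 1 week (filled circles, exact 95% counting intervals), with the values without the Coch-carrying barcodes (diamonds) and without the barcodes holding 5 or more Acta2, Tagln and Myh11 UMIs (crosses). Cck, Coch and Fmod move towards 0 without the Coch-carrying barcodes, and the contractile genes without the contractile ones, while Hsd11b1, Fn1, Vcam1 and Pcdh18 keep their side of 0 under both. The diamonds of Cck and Fmod rest on 3 and 1 and on 2 and 1 UMIs.

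Among the highest ratios, Coch had 715 UMIs (679 CPM) in the control and 1418 UMIs (3269 CPM) in the ablated fibroblasts, a log2 ratio of 2.27 (2.14 to 2.40). Fmod (chromosome 1, 134037254 to 134048277, plus strand) had 94 and 184 UMIs, 89.2 and 424 CPM, a log2 ratio of 2.25 (1.88 to 2.62). Cck had 54 and 110 UMIs, a log2 ratio of 2.31 (1.82 to 2.80). Without the Coch-carrying barcodes the log2 ratios of Coch, Fmod and Cck were 0.52, 0.84 and 0.25. These came from 20 and 8 UMIs of Coch, 2 and 1 of Fmod and 3 and 1 of Cck. The Coch value follows from the barcodes left out, and the other values rest on too few UMIs to be read as ratios. Hsd11b1, the enzyme that regenerates active glucocorticoid, behaved otherwise (chromosome 1, 193221634 to 193264075, minus strand). It had 42 and 82 UMIs (39.9 and 189 CPM), found in 30 of 227 control and 37 of 89 ablated barcodes, a log2 ratio of 2.25 (1.69 to 2.82) that became 3.0 without the Coch-carrying barcodes. Other genes with at least 2-fold higher values with and without those barcodes were Ctla2a (a cysteine protease inhibitor, log2 1.91 and 2.47), Fibin (a secreted factor, 1.73 and 2.23), Snai1 (a zinc finger repressor known from epithelial-mesenchymal transition, 1.87 and 1.91) and Fscn1 (the actin bundler fascin, 1.81 and 1.03). Igfbp4, a binding protein of insulin-like growth factors, had a log2 ratio of 1.59, and 0.91 without them. Ctla2a had 40 UMIs in 14 control and 62 UMIs in 11 ablated barcodes. In the control library it was lower in the fibroblasts (38.0 CPM) than in the other barcodes (65.9 CPM), so it was named through the ablated library only.

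Acta2, Tagln, Myh11, Myl9 and Mylk, genes of the smooth muscle contractile apparatus, had the log2 ratios 5.30, 4.72, 5.12, 3.62 and 2.49. These ratios came from 1 barcode: it held 570 of the 584 Acta2 UMIs, 463 of the 489 Tagln UMIs and 128 of the 129 Myh11 UMIs of the ablated fibroblasts. Without the 4 control and 4 ablated contractile barcodes the log2 ratios were 0.66, -1.48, -0.19, 0.81 and -0.02. Cxcl13, a B-cell chemokine, had 7 and 46 UMIs (log2 4.00), each from 2 barcodes.

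The lowest ratios included those of fibronectin and of several surface proteins. Fn1 (fibronectin, chromosome 1, 71585520 to 71653200, minus strand) had 501 UMIs (476 CPM) in 88 control barcodes and 44 UMIs (101 CPM) in 20 ablated barcodes, a log2 ratio of -2.23 (-2.71 to -1.78). One control barcode held 145 of the Fn1 UMIs; the log2 ratio was -1.79 without the Coch-carrying barcodes. Vcam1, a leukocyte adhesion receptor (chromosome 3, 116109949 to 116129688, minus strand), had 604 UMIs (573 CPM) in 99 control barcodes and 76 UMIs (175 CPM) in 22 ablated ones, a log2 ratio of -1.71 (-2.07 to -1.36), and -1.20 without the Coch-carrying barcodes. Pcdh18, a protocadherin, was in 42 control barcodes and 3 ablated ones (52 and 3 UMIs, log2 ratio -2.84, -5.16 to -1.21). Dpp4, a surface peptidase that marks fascial and adventitial fibroblasts, had 72 and 7 UMIs in 50 and 6 barcodes (log2 ratio -2.08, -3.45 to -0.97). Sfrp4, a Wnt antagonist, had 61 and 1 UMIs (log2 ratio -4.65, -9.98 to -2.12), but 55 of the control UMIs came from 1 barcode. The other genes with the lowest ratios were Lhfpl2, Ssc5d, Procr, Stmn2, Tnn, Cys1, C1qtnf3, Acyp2, Thbd and Aldh1a1, with log2 ratios from -2.42 to -1.58. The values of Tnn came from 8 control and 2 ablated barcodes. Without the Coch-carrying barcodes these genes stayed 2-fold or more lower except Thbd (-0.93).

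Of the fibrillar collagens that the rule had not used, 3 had enough UMIs, and 1 of them was 2-fold or more lower at 1 week: Col5a3, with 125 and 25 UMIs (log2 ratio -1.04, -1.72 to -0.41). Among all genes tested 3.05% were 2-fold or more lower. Col5a1 and Col5a2, which encode the common chains of the type V collagen that nucleates fibrils, had log2 ratios of -0.13 and -0.22. The genes of type I and III collagen, the main collagens of dermis, are rule genes, so their values are a description of cells chosen by these genes. Col1a1 had 5870 UMIs (5572 CPM) and 1331 UMIs (3069 CPM), a log2 ratio of -0.86. Col1a2 had a log2 ratio of -0.91, Col3a1 -0.74 and Dcn (decorin) -0.40. Without the Coch-carrying barcodes the log2 ratios were -0.47 for Col1a1, -0.61 for Col1a2, -0.32 for Col3a1 and -0.50 for Col5a3. In the barcodes with fewer than 3 Coch UMIs Col1a1 stood at 5907 CPM (control) and 4270 CPM (ablated), and in the Coch-carrying barcodes at 2625 and 1189 CPM. Col1a2 stood at 5925 and 3881 CPM in the first set and at 2802 and 1597 CPM in the second.

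Of 11 other collagens 2 were 2-fold or more higher and 1 lower, against 2.66% and 3.05% of all genes tested, with a median log2 ratio of 0.44. The lower one was Col17a1 (-1.71), a hemidesmosomal collagen of basal keratinocytes. The higher ones were Col12a1, a fibril-associated collagen (49.4 and 115 CPM, log2 ratio 1.22, 0.63 to 1.81), and Col23a1, a transmembrane collagen (33.2 and 71.5 CPM, log2 ratio 1.11, 0.36 to 1.84). Both were higher without the Coch-carrying barcodes as well, at 1.61 and 1.58. Type VI collagen, which forms beaded filaments around cells, was slightly higher in Col6a1 (log2 0.48) and Col6a2 (0.44) and near 0 in Col6a3 (-0.08). Among 21 genes of collagen processing and crosslinking, 1 was 2-fold or more lower and none higher. That gene was P4ha2, a prolyl hydroxylase subunit (59 and 10 UMIs, log2 ratio -1.28, -2.41 to -0.30; -0.85 without the Coch-carrying barcodes). Lox, the lysyl oxidase that crosslinks collagen, was at 137 and 265 CPM (log2 ratio 0.96, 0.59 to 1.32), and the collagen chaperone Serpinh1 at -0.29.

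Of 8 small leucine-rich proteoglycans besides the rule gene Dcn, 3 were 2-fold or more higher and none lower, with a median log2 ratio of 0.13. Among all genes tested 2.66% were 2-fold or more higher and 3.05% lower. The 3 proteoglycans were Fmod, Prelp (163 and 461 CPM, log2 ratio 1.5, 1.20 to 1.80) and Aspn (377 and 761 CPM, 1.01, 0.80 to 1.23). Prelp kept a log2 ratio of 1.28 without the Coch-carrying barcodes, whereas Aspn reversed to -0.34. Lum was lower, at 3039 UMIs (2885 CPM) and 796 UMIs (1835 CPM), a log2 ratio of -0.65 (-0.77 to -0.54), and Bgn (biglycan) slightly higher, at 0.32.

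None of 17 elastic fibre and microfibril genes differed 2-fold, against 5.71% of all genes tested (2.66% higher and 3.05% lower), and their median log2 ratio was -0.18. Efemp1 (fibulin-3, -0.93), Mfap4 (-0.76) and Mfap5 (-0.65) were at the low end, and Eln (elastin, 0.55) and Fbn1 (fibrillin-1, -0.18) above them. One control barcode held 116 of the 346 Mfap5 UMIs, and without the contractile barcodes Mfap5 was at 0.01. Of 27 other matrix glycoproteins, 2 were 2-fold or more lower (Fn1 and Hspg2, the basement membrane proteoglycan perlecan, log2 ratio -1.08) and 1 higher (Sparcl1, a collagen-binding matricellular protein, 170 and 466 CPM, log2 ratio 1.45, 1.16 to 1.75). One ablated barcode held 92 of the 202 Sparcl1 UMIs, and without the contractile barcodes the log2 ratio was 0.73. Tnxb (tenascin-X, -0.98), Dpt (dermatopontin, -0.92) and Thbs1 (thrombospondin-1, -0.91) were just short of 2-fold lower. Thbs1 was also high in the other barcodes, at 1425 and 776 CPM. Of 20 matrix proteases and inhibitors, 1 was 2-fold or more higher, the aggrecanase Adamts4 (119 and 256 CPM, log2 ratio 1.11, 0.73 to 1.49; 0.77 without the Coch-carrying barcodes). Mmp2 (0.19), Mmp14 (-0.11) and Timp2 (-0.04) lay near 0.

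**Figure D5:**
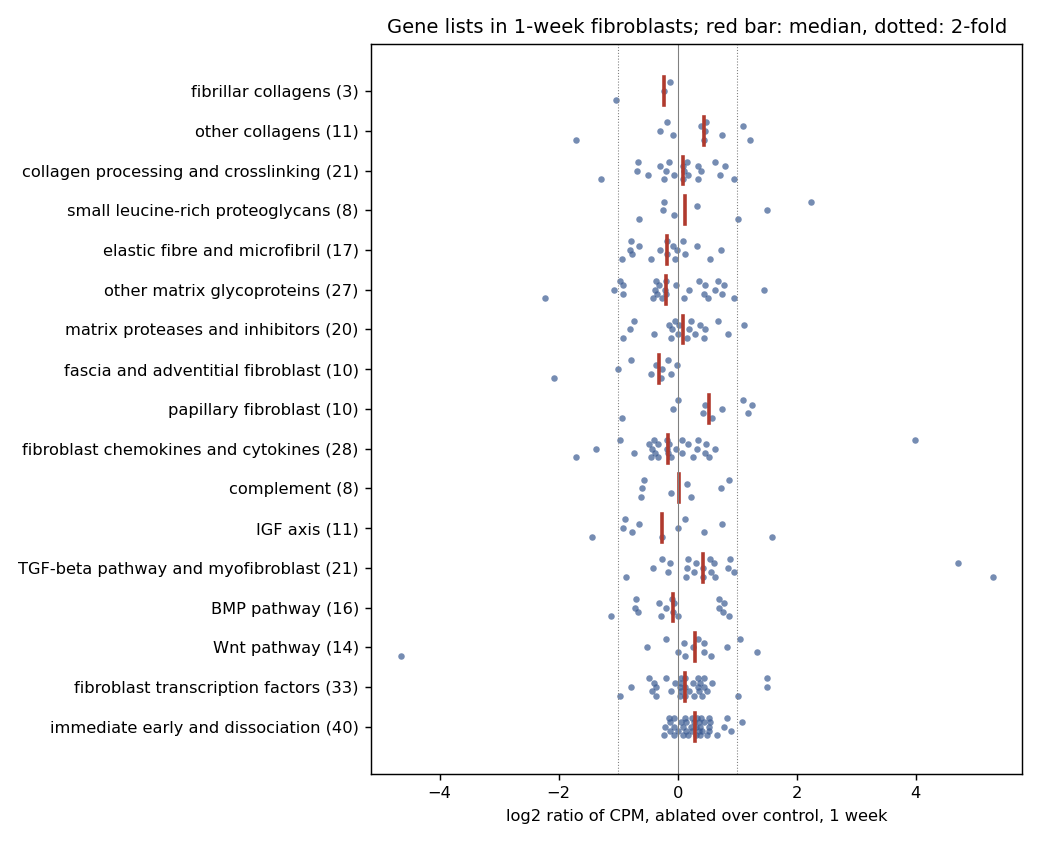
Log2 ratio of CPM, ablated over control, at 1 week for the genes of 17 lists that had 50 or more UMIs (points, their number in brackets; rule genes left out), with each list's median (red bar), 0 and 2-fold (dotted). The medians lie between -0.32 (fascia and adventitial) and 0.52 (papillary), and most points lie within 2-fold.

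Lists of dermal fibroblast subsets gave different medians. Of 10 papillary genes, which mark the upper dermis, 8 had log2 ratios above 0, against 55.5% of all genes tested (7 of 10 and 42.3% with TMM), 3 of them 2-fold or more, with a median log2 ratio of 0.52. The 3 were Crabp1 (427 and 1012 CPM, 1.24), Entpd1 (an ectonucleotidase, 1.18) and Col23a1. Crabp1 reversed to -0.28 without the Coch-carrying barcodes, and Entpd1 was at 1.65. Of 10 fascial and adventitial genes all had log2 ratios below 0, against 44.5% of all genes tested (57.7% with TMM), 1 of them 2-fold (Dpp4), with a median of -0.32. Pi16, a marker of universal adventitial fibroblasts, was one of them but nearly the same in both libraries (804 and 800 CPM, log2 -0.01, -0.19 to 0.17), and thinned detection was 39.6% and 37.1%. Of 2 surface markers of the same cells, Ly6a (-0.11) was near Pi16, whereas Cd34 (-0.45) was below the median of the list. In the barcodes with fewer than 3 Coch UMIs Ly6a was not lower, at 2036 CPM (control) and 2112 CPM (ablated). Pi16 (815 and 729 CPM) and Dpp4 (72.9 and 26.5 CPM) were lower there. Of 7 reticular genes 2 were 2-fold or more higher, the lipid droplet gene Plin2 (1.43) and the transglutaminase gene Tgm2 (1.06), and 1 lower (Cpz, a carboxypeptidase, -1.22). Beside the 2-fold counts of these subset lists, 2.66% of all genes tested were higher and 3.05% lower. The dermal papilla genes Sox2 and Rspo2 had no UMI in any thinned fibroblast barcode at 1 week (0 of 227 and 0 of 89). Counting error then allows up to 1.61% and 4.06% of barcodes with a UMI at this depth, which does not limit the share of cells expressing the gene. Enpp2 (autotaxin, which makes lysophosphatidic acid) was at 230 and 646 CPM (log2 1.49, 1.24 to 1.74; 0.68 without the Coch-carrying barcodes).

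Of 28 genes on the list of chemokines, cytokines and adhesion receptors 1 was 2-fold or more higher (Cxcl13) and 2 were lower (Vcam1 and Il6), with a median log2 ratio of -0.16; among all genes 2.66% were higher and 3.05% lower. The monocyte chemoattractants Ccl2 and Ccl7 were among the strongest genes of both libraries, Ccl7 at 3850 and 2808 CPM (log2 -0.46, -0.55 to -0.36) and Ccl2 at 2969 and 2262 CPM (-0.39, -0.50 to -0.29). Without the Coch-carrying barcodes they were -0.04 and -0.07, and one control barcode held 576 of the 3128 Ccl2 UMIs. The lymphoid chemokine Ccl19 was at 1358 and 1429 CPM (0.07). Il6 had 88 and 14 UMIs (log2 ratio -1.37, -2.30 to -0.55). None of the 17 NF-kB feedback genes differed 2-fold (median 0.01), and Nfkbia, the inhibitor that NF-kB itself induces, was at 0.31. Of 12 interferon-stimulated genes 11 had log2 ratios above 0, against 55.5% of all genes tested, with a median of 0.26; with TMM these were 9 of 12 and 42.3%. Isg15 was 2-fold lower on 64 and 13 UMIs (-1.02, -2.0 to -0.14). The metal-binding metallothioneins were lower: Mt1 at 4754 and 2614 CPM (-0.86, -0.96 to -0.77) and Mt2 at 1212 and 551 CPM (-1.14, -1.34 to -0.94). Without the Coch-carrying barcodes they were at -0.66 and -0.92, both under 2-fold. The acute phase gene Serpina3n was higher, at 525 and 975 CPM (0.89, 0.71 to 1.08). Of 8 complement genes none differed 2-fold, and C3 was at 774 and 906 CPM (0.23).

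Of 11 genes of the insulin-like growth factor axis 1 was 2-fold or more higher (Igfbp4) and 1 lower (Igfbp3), against 2.66% and 3.05% of all genes tested. Igfbp3 was at 180 and 66.9 CPM (log2 ratio -1.43, -2.05 to -0.86), and at -0.52 without the Coch-carrying barcodes. Igfbp3 was higher in the other barcodes of the control library, at 851 CPM, and stood at 67.1 CPM in those of the ablated library. Under 2-fold, the ligand Igf1 (467 and 297 CPM, -0.65) and the binding proteins Igfbp5 (2461 and 1335 CPM, -0.88) and Igfbp6 (-0.91) were lower, and Igfbp7 was higher (1474 and 2462 CPM, 0.74). Of 16 BMP pathway genes 1 was 2-fold or more lower, the extracellular modulator Twsg1 (164 and 31 UMIs, -1.12, -1.73 to -0.56). The BMP target Id3 was higher, at 777 and 1409 CPM (0.86, 0.70 to 1.01). Of 14 Wnt pathway genes 2 were 2-fold or more higher and 1, Sfrp4, lower. The higher ones were the antagonist Dkk2 (53.2 and 134 CPM, 1.33, 0.78 to 1.89) and the agonist Rspo1 (69.3 and 143 CPM, 1.04, 0.53 to 1.55). Of 21 TGF-beta and myofibroblast genes only the single-barcode genes Acta2 and Tagln differed 2-fold. Postn (periostin) was at 0.94, and at -0.49 without the Coch-carrying barcodes. Of 12 growth factor genes that act on the epidermis or the PDGF axis, 1 was 2-fold or more lower (Ptn, pleiotrophin, 114 and 14 UMIs, -1.75, -2.66 to -0.94). The other barcodes held more Ptn than the fibroblasts, 266 and 255 CPM. Fgf7, the keratinocyte growth factor, was at 148 and 217 CPM (0.55, 0.16 to 0.93).

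Of 33 fibroblast transcription factors 3 were 2-fold or more higher and none lower, against 2.66% and 3.05% of all genes tested, with a median log2 ratio of 0.12. Tsc22d3, a glucocorticoid-induced leucine zipper gene, was at 111 and 316 CPM (1.51, 1.14 to 1.88), and at 1.71 without the Coch-carrying barcodes. Osr1 had 36 and 30 UMIs (1.02, 0.27 to 1.76). The mesenchymal factors Prrx1 (0.05) and Twist2 (0.26) were near the median of all genes. Of 40 genes induced early by stress and tissue dissociation 32 had log2 ratios above 0, against 55.5% of all genes tested, with a median of 0.29; with TMM these were 26 of 40 and 42.3%. The heat shock gene Hsph1 was the only one 2-fold higher (110 and 233 CPM, 1.08, 0.68 to 1.48), and Hspa1a was at 0.89 and Fos at 0.24. Whether dissociation differed between the libraries was not tested.

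At 1 day the fibroblast sums were small, and keratinocyte RNA moved with the groups. Of 930 genes with 50 or more UMIs, 121 (13%) differed 2-fold or more, 75 (8.06%) higher and 46 (4.95%) lower in the ablated library. The share higher was 62.0%, and 49.2% when mitochondrial, ribosomal protein and rule genes were left out of the totals. Of 23 keratinocyte markers 12 were 2-fold or more higher and 3 lower, and the whole list summed to 24270 CPM (control) and 49137 CPM (ablated) in the fibroblasts. Without the barcodes holding more keratin than rule gene UMIs, 36 control and 15 ablated barcodes remained, and of 376 genes 19 were 2-fold or more higher and 18 lower. The part of keratinocyte RNA in the other differences was not tested.

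The rule genes at 1 day were at 2876 and 3801 CPM for Col1a1 (log2 0.40), 2715 and 3823 CPM for Col1a2 (0.49), 3436 and 3579 CPM for Col3a1 (0.06) and 2809 and 2267 CPM for Dcn (-0.31). Without the keratin-rich barcodes they were at 1.16, 1.18, 0.82 and 0.28. All are given as a description. Outside the rule, Lum had 107 and 46 UMIs (594 and 341 CPM, log2 ratio -0.80, -1.33 to -0.29) and Sparc 541 and 315 UMIs (-0.36, -0.57 to -0.16). These were at -0.13 and 0.47 without the keratin-rich barcodes. Of 17 general fibroblast genes with enough UMIs, 14 had log2 ratios below 0, against 52.5% of all genes tested. Of the 14, 1 was 2-fold lower (Thy1), against 4.95% of all genes tested. The median log2 ratio of the 17 was -0.36, and 0.28 without the keratin-rich barcodes. Basement membrane collagen IV was lower with both sets of barcodes. Col4a1 had 88 UMIs in 31 control barcodes and 21 UMIs in 12 ablated ones (log2 ratio -1.65, -2.41 to -0.95; -0.93 without the keratin-rich barcodes), and Col4a2 had 48 and 9 UMIs (-2.0, -3.21 to -0.96; -2.14). Vcan, the large proteoglycan versican, had 46 and 11 UMIs (-1.65, -2.75 to -0.68; -1.38).

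Other genes kept their direction at 1 day without the keratin-rich barcodes. Igfbp3 had 170 and 28 UMIs (944 and 207 CPM, log2 ratio -2.19, -2.82 to -1.60; -2.72), a log2 ratio of -0.98 with 20 or more rule gene UMIs, and stood at 561 and 165 CPM in the other barcodes. Thy1, a fibroblast surface glycoprotein, had 56 and 15 UMIs (-1.48, -2.41 to -0.64; -2.38, from 38 and 3 UMIs). The cytokine feedback gene Socs3 had 40 and 11 UMIs (-1.45; -3.68, from 31 and 1 UMIs), with a log2 ratio of -0.82 (-2.13 to 0.38) in barcodes of 2000 or more UMIs, and the growth arrest gene Gadd45g 98 and 25 UMIs (-1.55; -2.20). Igfbp5 had 28 and 98 UMIs (2.22, 1.61 to 2.88; 3.19), 42 of the latter in 1 barcode. Crabp1 had 28 and 68 UMIs (1.70, 1.04 to 2.39; 2.68) in 10 and 6 barcodes. Tgfbr2, the type II TGF-beta receptor, had 22 and 34 UMIs (1.04, 0.23 to 1.89; 1.90) in 15 and 17 barcodes, and was under 2-fold without the Coch-carrying barcodes (0.87). Coch had 52 UMIs in 8 control barcodes and 169 UMIs in 2 ablated ones, 102 of them in 1 (log2 2.12), so that its ratio rests on 2 barcodes; fibroblasts with 3 or more Coch UMIs were 5 of 47 and 2 of 35.

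Several high and low values at 1 day rested on few barcodes or on the keratin-rich ones. Pyy, the peptide YY gene, had 0 and 57 UMIs, 28 of them in 1 barcode, and was at least 25.4-fold higher against a floor of 3 UMIs in the control sum. All of its UMIs lay in keratin-rich barcodes: without them both sums were 0, as they were with 20 or more rule gene UMIs. The other barcodes held Pyy at 26.7 and 162 CPM. Sprr1b, a cornified envelope gene of keratinocytes, had 20 and 63 UMIs (2.07), and 2 and 0 UMIs without the keratin-rich barcodes. Tagln (138 and 4 UMIs, -4.69) and Acta2 (109 and 5 UMIs, -4.03) owed 120 and 99 of their control UMIs to 1 barcode.

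The other higher genes named by the rule at 1 day had log2 ratios of 0.49 to 0.96, none of them 2-fold: Arcn1, Gas6, Mgp, Thbs2, Adamts2, Aebp1, Hspa1b, Cd34 and P4hb. Of these, 4 passed 2-fold without the keratin-rich barcodes: Gas6 (2.28), Thbs2 (1.28), Adamts2 (1.21) and Aebp1 (1.1). With 20 or more rule gene UMIs these were at 1.63, 1.37, 1.30 and 1.36. Both settings keep barcodes by their rule gene UMIs, and the rule genes rose under both as well. Col1a1 went from 0.40 to 1.16 and 0.92, and Col1a2 from 0.49 to 1.18 and 1.06, in the same order of settings. The part of this general shift in the rise of the 4 genes was not tested. Arcn1 (0.75), Hspa1b (0.51), Cd34 (0.75) and P4hb (0.76) stayed under 2-fold without the keratin-rich barcodes. Mgp (matrix Gla protein, 80 and 108 UMIs, 0.85) had 50 of its control and 63 of its ablated UMIs in single barcodes. It was at -0.15 without the keratin-rich barcodes, at 1.22 with 20 or more rule gene UMIs and at 3.79 (2.34 to 5.73, from 4 and 45 UMIs) without the contractile ones. Among the lower ones, Slc25a4 (a mitochondrial ADP/ATP carrier, -1.72), Eid1 (-1.72), Nupr1 (a stress-induced nuclear protein, -1.26), Itgav (the integrin alpha V chain, -1.20) and Runx1 (a transcription factor, -1.17) were spread over 22 to 29 control barcodes. Without the keratin-rich barcodes they were at -3.53 (from 28 and 1 UMIs), -2.72, -1.86, -1.58 and -1.14. Nupr1 (-0.99) and Runx1 (-0.93) were under 2-fold with 2000 or more UMIs, and Itgav and Runx1 (-0.98 each) without the Coch-carrying barcodes. Cavin3 (-1.28) and Tpm2 (-1.42) were at -0.64 and -0.60 without the keratin-rich barcodes.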

How the data were processed

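Single-cell RNA counts of 4 libraries were used, 1 per group. The deposited matrices hold UMI counts, whole numbers per gene and barcode; the submitters' processing notes name Cell Ranger 5.0.1, Seurat and the genome mm10. The 1-day matrices also hold 4 antibody features called hashtags, which were kept out of all totals. Coordinates are from GENCODE M21 on GRCm38. Barcodes with under 1000 gene UMIs or over 15% mitochondrial UMIs were left out, and no doublet caller was run; leaving out barcodes with more keratin than rule gene UMIs was an alternative. UMIs of the fibroblast barcodes were summed per library and given as CPM (UMIs scaled to 1000000 of that sum). Ratios are of CPM, ablated over control, with exact conditional binomial 95% intervals, CPM with exact Poisson intervals and shares with exact Clopper-Pearson intervals, all for counting error only. With 1 library per group no test was made: a gene counted as differing at 2-fold or more, among genes with 50 or more pooled UMIs. A sum of 0 was set to a floor of 3 UMIs. Named genes had the 15 highest and 15 lowest ratios among genes at least 2 times higher in fibroblasts than in the other barcodes of the library in which they were higher, leaving out mitochondrial, ribosomal protein, haemoglobin and rule genes; genes of the lists are named besides. Detection was compared after thinning barcodes to 1000 UMIs. Alternatives changed the rule's threshold (20 UMIs), the depth, mitochondrial and gene filters, the scaling (TMM of edgeR 4.0.16, used for factors only, or totals without mitochondrial, ribosomal protein and rule genes) and the barcodes left out. The fibroblast rule and the gene lists were chosen with earlier results of these data known, and the splits by Coch and by contractile genes after seeing the data. The counting was tested on simulated data. Software was Python 3.11.15, scipy 1.17.1 and R 4.3.3. Some list members are not reported here.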

Additional observations from a re-analysis of the deposited data

Results flagged for a closer look

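Of 924 genes with 50 or more fibroblast UMIs at both time points, 33 differed 2-fold or more at both, 20 in the same direction and 13 in opposite directions; the difference between the time points was not tested, and they were measured with different kits. Of the contractile genes, the log2 ratio was 5.30 at 1 week against -4.03 at 1 day for Acta2, 4.72 against -4.69 for Tagln and 2.53 against -1.42 for Tpm2, a tropomyosin. A single barcode held most of these UMIs in the 1-week ablated and in the 1-day control library. Of the keratins, it was -5.48 against 1.86 for Krt1, -3.39 against 1.63 for Krt10, -3.76 against 2.02 for Krt77 and 3.28 against -2.39 for Krt79. Without the keratin-rich barcodes Krt1 was at -2.53 (-7.93 to 0.19) at 1 day. Krt1 and Krt10 are among the 5 keratins by which those barcodes were left out, so the fall of Krt1 follows from that choice. Krt79, which is not one of the 5, was at -0.43 (-1.08 to 0.19) at 1 week without them. That value was below 0 as at 1 day, with an interval that includes 0. Krt79 was also below 0 at 1 week without the Coch-carrying (-3.07), deepest (-1.13) or contractile (-0.0316) barcodes; 1 barcode held 438 of its 483 ablated UMIs. Of other genes, it was -1.21 against 2.16 for Elovl4, -1.47 against 1.21 for Plet1, -1.37 against 1.04 for Lypd3, -2.01 against 1.08 for Fam25c and -1.05 against 1.17 for Cldn1. Without the keratin-rich barcodes Elovl4 (2.76, from 1 and 3 UMIs) and Plet1 (0.26) were above 0 at 1 week, and Fam25c was at -1.81 at 1 day. Enpp2 was at 1.49 against -1.02, and 0.68 against -1.60 without the Coch-carrying barcodes. Its 1-day log2 ratio was under 2-fold with 20 or more rule gene UMIs (-0.41, -1.18 to 0.32) and with 2000 or more UMIs (-0.97).

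The antibody features of the 1-day libraries carried signal in the fibroblasts and in the other barcodes. In the control fibroblasts the medians of hashtags 1, 2 and 3 were 83, 101 and 112 UMIs per barcode, and in the ablated ones 61, 138 and 68; hashtag 4 had a median of 0 in both. In the other barcodes the medians of hashtags 1, 2 and 3 were 86, 113 and 109.5 UMIs (control) and 70, 139 and 71 UMIs (ablated). The leading hashtag took a median of 40.3% and 47.9% of a barcode's hashtag UMIs in the fibroblasts and 55.1% and 50.6% in the others, and none of the fibroblast barcodes passed 90%. Few of the other barcodes passed 90% either, 137 of 29342 (control) and 102 of 31827 (ablated). The labels do not say what the hashtags mark, and they were used for no split.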

How the results depend on the processing

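No paired analysis was possible because each group is 1 library, and for the same reason no library could be left out. The share of fibroblasts moved in log2 ratio to -1.38 without keratin-rich barcodes at 1 day, where it was also -1.17 with the rule applied after thinning to 1000 UMIs and -0.96 with 20 rule gene UMIs but -0.18 with 2000 or more UMIs, and at 1 week to -0.61 with 2000 or more UMIs and -2.05 without Coch-carrying barcodes, and was lower in the ablated library under each setting tried for it. The number of genes tested changed with the setting and is given beside each count. Genes 2-fold or more higher at 1 day were 75 of 930. They became 44 of 639 with 20 rule gene UMIs and 19 of 376 without keratin-rich barcodes. When genes needed 20 pooled UMIs, 200 pooled UMIs or 1 UMI in each sum, they were 267 of 2545, 20 of 219 and 1431 of 8444. Genes lower at 1 day were 46 of 930. They became 18 of 376 without keratin-rich barcodes and 27 of 632 without the deepest 10% of fibroblast barcodes. With those 3 filters they were 208 of 2545, 6 of 219 and 1227 of 8444. At 1 week the higher genes, 115 of 4326, became 76 of 3247 without the deepest 10%. With the filters they were 389 of 7431, 29 of 1188 and 1751 of 11882. The lower genes, 132 of 4326, became 203 of 4326 with TMM. With the filters they were 358 of 7431, 36 of 1188 and 908 of 11882. Among the named genes and lists that differed 2-fold or more with all barcodes, directions turned at 1 day for Acta2 (0.21), Cd74 (-3.15) and H2-Ab1 (-0.57) with 20 rule gene UMIs, and Trp63 (0.69), Krt1 (-2.53) and Fam25c (-1.81) without keratin-rich barcodes. Coch came to -0.0123 at 1 day without Coch-carrying barcodes. That value is a bound from 4 control and 0 ablated UMIs, the latter set to the floor of 3, and gives no direction. At 1 week they turned without Coch-carrying barcodes for Aspn (-0.34), Crabp1 (-0.28), Tnmd (-0.0552) and Krt79 (-3.07). Without the deepest 10% they turned for Acta2 (-0.20), Myh11 (-1.58), Mylk (-0.48), Tpm2 (-0.0615), Krt79 (-1.13), Elovl4 (0.90) and the median of the dermal sheath and contractile list (-0.10). Without contractile barcodes they turned for Tagln (-1.48), Myh11 (-0.19), Mylk (-0.0196) and Krt79 (-0.0316), with 20 rule gene UMIs for Acta2 (-1.29) and Myh11 (-0.29), without keratin-rich barcodes for Krt79 (-0.43), Elovl4 (2.76) and Plet1 (0.26), and with the mean of per-barcode CPM for Elovl4 (0.0191). Of the genes looked up that were under 2-fold with all barcodes, 8 of 24 at 1 day and 20 of 67 at 1 week turned under at least 1 choice of barcodes. At 1 day 7 turned without keratin-rich barcodes, among them Sparc (0.47), Dcn (0.28), Dpt (0.44) and Mgp (-0.15), and 5 with 20 rule gene UMIs. At 1 week 14 turned without Coch-carrying barcodes, among them Postn (-0.49), and 13 without the deepest 10%. The contractile, Coch and Krt1 values follow from the barcodes left out. Dcn is a rule gene, by which the keratin-rich barcodes were set apart, so its turn is a description only. Single barcodes held most of the 1-day ablated UMIs of Cd74 and H2-Ab1 and of the 1-week ablated UMIs of Krt79, as given above. The cause of the other turns was not tested. At 1 day 930 genes reached 50 pooled UMIs, from 47 and 35 barcodes, against 4326 at 1 week.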
